A study of Mus musculus with 20 samples.

Results

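The genes of hepatic glucose production and glucose use were examined in livers of mice treated with an antisense oligonucleotide against the small nucleolar RNA SNORA73 or with a control oligonucleotide. Pck1, G6pc, Fbp1, Pcx, Slc37a4, Ppargc1a, Gckr, Pklr and Slc2a2 were chosen by name as enzymes, transporters and regulators of the pathway, and all 9 were found among the 53028 genes of the count table. Each of the 10 mice gave 1 library of total liver RNA and 1 of RNA recovered from polysomes, so that the genes were measured in 20 libraries. SNORA73 is a box H/ACA snoRNA carried in introns of the Snhg3 gene, and the libraries compare the transcriptome and the translatome of liver after its knockdown.

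All mice were male C57BL/6J animals fed chow without restriction, and all received a locked nucleic acid (LNA) antisense oligonucleotide by intraperitoneal injection 3 times on alternate days, with 3 mg/kg at each. The control group (GFP LNA, mice 1, 2, 3, 8 and 9) received an LNA against GFP, a jellyfish protein that these mice lack, and the other group (SNORA73 LNA, mice 4, 6, 10, 11 and 12) an LNA against SNORA73. The sample labels write that target as Snora37. An age of 8 weeks is recorded for the chow-fed cohort, which was killed 2 days after the last injection, and an age of 10 weeks for the livers used for polysomes. Which liver cell types and other organs took up the LNA was not measured here, and the libraries are of whole liver tissue. Cycloheximide, which holds ribosomes on mRNA, was infused before the mice were killed for polysomes, and mice without an LNA were not analysed here.

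The liver makes glucose from lactate, glycerol and amino acids when food is scarce and burns or stores glucose when food is plentiful. Pyruvate carboxylase (Pcx) and phosphoenolpyruvate carboxykinase (Pck1) turn pyruvate into phosphoenolpyruvate, fructose-1,6-bisphosphatase (Fbp1) reverses the phosphofructokinase step of glycolysis, and glucose-6-phosphatase (G6pc) with the glucose-6-phosphate transporter (Slc37a4) releases free glucose in the endoplasmic reticulum. Glucagon and cAMP raise transcription of Pck1, G6pc and the coactivator Ppargc1a, and insulin lowers it through FOXO1, while liver pyruvate kinase (Pklr), the regulatory protein Gckr and the glucose transporter GLUT2 (Slc2a2) belong to glucose uptake and glycolysis.

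The sequences just upstream of the start sites of Pck1, G6pc and Ppargc1a are shown because these are the hormone-regulated genes of the group. They are 250 bases each, 5′ to 3′ on the strand of the gene, from RefSeq on GRCm38.p6. Capitals mark the core of a cAMP response element (ACGTCA) in Pck1 and Ppargc1a and a TATA box (TATAAA) in G6pc.
Pck1, chr2:173152823-173153072, plus strand: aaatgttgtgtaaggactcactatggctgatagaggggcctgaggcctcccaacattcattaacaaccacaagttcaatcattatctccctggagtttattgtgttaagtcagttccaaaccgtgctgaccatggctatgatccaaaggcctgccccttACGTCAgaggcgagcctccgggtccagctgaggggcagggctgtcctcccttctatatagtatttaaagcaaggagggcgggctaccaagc
G6pc, chr11:101367466-101367715, plus strand: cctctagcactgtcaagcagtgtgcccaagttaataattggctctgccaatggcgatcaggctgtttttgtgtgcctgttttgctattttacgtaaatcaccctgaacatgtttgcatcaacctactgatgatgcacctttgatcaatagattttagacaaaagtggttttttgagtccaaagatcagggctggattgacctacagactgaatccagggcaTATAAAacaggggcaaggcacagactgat
Ppargc1a, chr5:51567726-51567975, minus strand: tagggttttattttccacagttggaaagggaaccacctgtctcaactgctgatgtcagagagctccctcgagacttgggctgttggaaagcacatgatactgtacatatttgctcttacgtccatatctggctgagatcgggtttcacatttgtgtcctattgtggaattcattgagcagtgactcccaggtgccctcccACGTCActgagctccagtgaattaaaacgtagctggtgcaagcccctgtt
The cAMP element core lay 91 to 86 bases upstream of the start in Pck1 and 50 to 45 bases upstream in Ppargc1a, and the TATA box of G6pc 29 to 24 bases upstream. The 9 genes had 13 such windows in the table, since Pcx, Pklr and Slc37a4 have more than 1 start there. The window of Ppargc1a lies inside the RefSeq span of this minus strand gene (chr5:51454249-52115853). A start at the upstream end of that span has no window here. Searched on both strands, the core ACGTCA (or TGACGT) was in 4 of the 13 windows, of Pck1, Ppargc1a and Slc37a4, and in 6.47% of all 32851 windows. These were 3 sites, since 2 windows of Slc37a4 overlap and hold the same one. TATAAA (or TTTATA) was in 3 windows, of G6pc, Pklr and Slc37a4, and in 12.4% of all windows. The E-box CACGTG was in 1 window of Pcx and in 6.02% of all, and the forkhead motif GTAAACA (or TGTTTAC) was in 0 of the 13 and in 3.17% of all. A match describes these letters only, and no binding was measured here.

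The libraries held 20005389 to 42023390 estimated counts in total RNA and 14852951 to 33824659 in polysome RNA. Values below are CPM, which set the counts of every library to a common total, after scaling by trimmed mean of M values (TMM), which sets samples to the same average gene. For CPM values this scaling was done within total RNA and within polysome RNA. For differences between the 2 RNAs it was done over all 20 libraries. The scaling factors of total RNA were 1.03 to 1.07 with GFP LNA and 0.882 to 0.998 with SNORA73 LNA, without overlap. Scaled by library totals instead, all genes tested had a median log2 fold change (SNORA73 LNA against GFP LNA) of −0.14 in total RNA and −0.17 in polysome RNA, and the fold changes below are relative to that shift. A single mouse of each group, which the labels do not name, was dropped in the study's own tests because it did not cluster with its group. Whether these were mice 9 and 10 is not given in the sources used here. Results are given for all 10 mice and without mice 9 and 10. The total RNA library of mouse 10 stood farthest from the others, with a mean correlation of log2 CPM with the rest of its group of 0.964 against 0.973 to 0.983 for the other total RNA libraries. In polysome RNA mouse 11 had the lowest such correlation (0.953), with 0.955 for mouse 10 and 0.965 for mouse 9. Snora73a had at most 2 counts and Snora73b at most 4 in any library, so the knockdown could not be read from these polyA-selected libraries. The 8 hepatocyte markers examined (such as Alb, Apoa1 and Ttr) were present in all groups. Of 4 kidney tubule markers, Slc34a1 and Umod had 0 counts in every library and Slc22a6 at most 1. Lrp2 had 6 to 33 counts in total RNA and 0 to 22 in polysome RNA, the most in mouse 10 in both (1.66 and 0.989 CPM).

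The first comparison asked whether the SNORA73 LNA altered the level of these mRNAs in total liver RNA. None of the 9 genes passed the test, in a comparison in which 4 of 13195 genes did, or 0.0303% (1 to 2 genes with any other single mouse left out, but 59 without mouse 9). The test was edgeR's quasi-likelihood test with a Benjamini-Hochberg false discovery rate (FDR) under 0.05 over all genes tested. Fbp1 had the smallest FDR of the group (0.487) and was the only one of the 9 with an unadjusted p under 0.05, against 1141 of all genes tested. Limma-voom and DESeq2 also called 0 of the 9, although DESeq2 called more of all genes than edgeR did. The log2 fold change was above 0 for 5 genes and below 0 for 4, with a median of 0.07 against 0.01 for all genes tested. In whole tissue, fewer cells of a type and less RNA per cell cannot be told apart.

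Among the enzymes at the head of the pathway, Pck1 (chr2:173153073-173159274) read 774, 1061, 864, 1117 and 623 CPM in GFP LNA mice 1, 2, 3, 8 and 9. In SNORA73 LNA mice 4, 6, 10, 11 and 12 it read 1218, 1082, 668, 1369.7 and 965 CPM. Mice 9 and 10 had the lowest Pck1 of their groups, and the ranges overlapped. The difference of the groups was 0.26 on the log2 scale (SE 0.20, 95% confidence interval −0.18 to 0.69, FDR 0.783). Pcx (chr19:4510472-4621752), which makes oxaloacetate for Pck1, was the steadiest of the group, with 95 to 109.8 CPM in GFP LNA mice and 96.1 to 143 CPM in SNORA73 LNA mice. The log2 fold change of Pcx was 0.20 (SE 0.11, interval −0.05 to 0.45, FDR 0.682).

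Fbp1 (chr13:62864753-62888298) read 366, 467, 447, 446 and 565 CPM in GFP LNA mice 1, 2, 3, 8 and 9 and 560.3, 758, 490.1, 532 and 625 CPM in SNORA73 LNA mice 4, 6, 10, 11 and 12. Mouse 9 was the highest of the controls and mouse 10 the lowest of the knockdowns, and the groups overlapped through mouse 9, since the other 4 controls lay below all SNORA73 LNA mice. The mean was 458 ± 71.3 CPM (SD, n = 5) with GFP LNA and 593 ± 105 CPM with SNORA73 LNA. The log2 fold change was 0.37 (SE 0.14, interval 0.06 to 0.68). Leaving out mice 9 and 10 gave 0.52 (SE 0.13, interval 0.24 to 0.80, FDR 0.119), which did not pass. Over those 8 mice Fbp1 was the only 1 of the 9 genes whose groups did not overlap, where 7.36% of all genes tested did not overlap. Over 10 mice this held for 0 of the 9 and for 1.8% of all genes.

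The glucose-releasing step was read from G6pc and Slc37a4. G6pc (chr11:101367716-101377903) read 161, 199, 286, 376 and 72.8 CPM in GFP LNA mice 1, 2, 3, 8 and 9, and 168, 369, 85.5, 160.1 and 133 CPM in SNORA73 LNA mice 4, 6, 10, 11 and 12. The controls alone thus spanned the range from 72.8 to 376 CPM, and the 2 groups covered nearly the same span. The log2 fold change of G6pc was −0.26 (SE 0.43, interval −1.18 to 0.67, FDR 0.912). It ranged from −0.68 without mouse 6 to 0.02 without mouse 8, and was −0.30 without mice 9 and 10. Slc37a4 (chr9:44396946-44402966) read 47.2 to 92.4 CPM with GFP LNA and 58.6 to 98.4 CPM with SNORA73 LNA. Slc37a4 had a log2 fold change of 0.16 (SE 0.20, FDR 0.870) and, without mice 9 and 10, 0.39 (SE 0.17, FDR 0.386).

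On the side of glucose uptake and use, Pklr (chr3:89136122-89146815) read 58.8, 94.7, 92.5, 136 and 196 CPM in GFP LNA mice 1, 2, 3, 8 and 9 and 95.9, 153, 57.8, 69.8 and 97.5 CPM in SNORA73 LNA mice 4, 6, 10, 11 and 12. Mouse 9 held the highest Pklr and mouse 10 the lowest. For Pklr the log2 fold change was −0.28 (SE 0.31, FDR 0.856), and the estimate was 0.13 (SE 0.26, FDR 0.901) without these 2 mice. Slc2a2 (chr3:28697903-28728361) read 140.5 to 210.0 CPM in GFP LNA mice and 137 to 201 CPM in 4 SNORA73 LNA mice, with 61.4 CPM in mouse 10. Its log2 fold change of −0.26 (SE 0.25, FDR 0.829) was 0.01 without mice 9 and 10.

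Gckr (chr5:31297266-31327302), a regulatory protein of hepatocyte glucose uptake, read 31.9 to 44.2 CPM with GFP LNA and 26.6 to 49.9 CPM with SNORA73 LNA (log2 fold change 0.07, SE 0.16, FDR 0.932). With library totals in place of TMM it was −0.07. The coactivator Ppargc1a (chr5:51454249-52115853) read 6.31 to 10.5 CPM with GFP LNA and 5.08 to 8.63 CPM with SNORA73 LNA, again with the highest value in mouse 9 and the lowest in mouse 10. Its log2 fold change was −0.08 (SE 0.17, FDR 0.927) and 0.14 without these mice. Over the 8 mice other than 9 and 10 the log2 fold change was above 0 for 8 of the 9 genes, all but G6pc. The median of all genes tested was 0.01 there. Mouse 10 was the lowest of its group for 8 of the 9 genes, so leaving it out raises that group. Mouse 9 was the highest control for Fbp1, Slc37a4, Ppargc1a, Pklr and Slc2a2 and the lowest for Pck1 and G6pc. Over these 8 mice none of the 9 passed, where 97 of 13017 genes, or 0.745%, did.

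**Figure D1:**
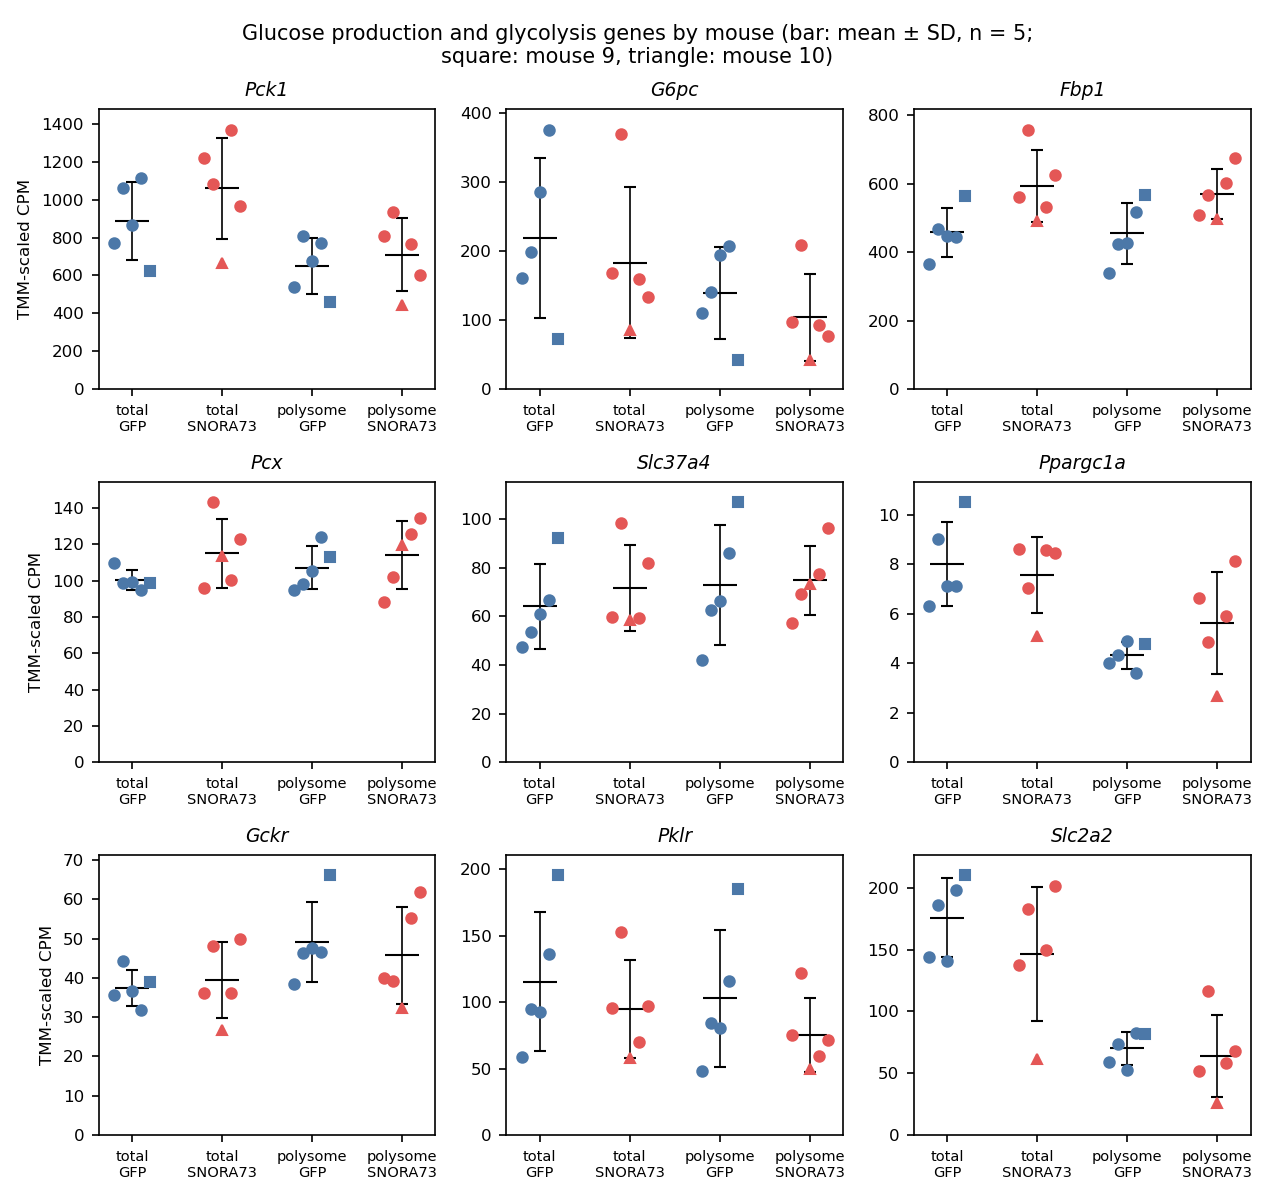
Each panel plots 1 gene in TMM-scaled CPM on a linear axis from 0, with a point for each mouse (blue GFP LNA, red SNORA73 LNA, square mouse 9, triangle mouse 10) and the mean ± SD of 5 mice. Total and polysome RNA were scaled apart. The LNA groups overlap in every panel, mouse 10 is the lowest of its total RNA group for 8 of the 9 genes, and Slc2a2, G6pc, Ppargc1a and Pck1 sit lower in polysome than in total RNA.

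The spread between mice of 1 group differed widely among the 9 genes. The residual SD of log2 CPM in total RNA was 0.84 for G6pc, larger than in 97.3% of the genes tested, 0.60 for Pklr (93.0%) and 0.51 for Slc2a2 (89.2%). It was 0.23 for Fbp1 (46.7%) and 0.17 for Pcx (25.8%), against a median of 0.24 for all genes. The width of the confidence intervals followed this spread. In total RNA they ran from −1.18 to 0.67 for G6pc and from −0.97 to 0.40 for Pklr. For these genes the mice did not exclude decreases near 1 on the log2 scale. The mice were fed without restriction, and the labels do not give the feeding state at death.

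The same question was asked of polysome RNA, the mRNA engaged by ribosomes. None of the 9 genes passed there either, in a comparison in which 2 of 13060 genes, or 0.0153%, did (17 without mouse 9 and 0 to 7 with any other mouse left out), and 0 of the 9 had an unadjusted p under 0.05, against 1755 of all genes. Limma-voom and DESeq2 called 0 of the 9 as well, although DESeq2 called 281 of all genes. Fbp1 again had the smallest FDR (0.387). It read 339, 424, 428, 518 and 567 CPM in GFP LNA mice 1, 2, 3, 8 and 9 and 509, 566, 497, 603 and 677 CPM in SNORA73 LNA mice 4, 6, 10, 11 and 12, which overlapped. The log2 fold change of Fbp1 was 0.33 (SE 0.16, interval −0.01 to 0.66), and 0.47 (SE 0.16, FDR 0.223) without mice 9 and 10.

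Ppargc1a read 4.01, 4.32, 4.91, 3.60 and 4.77 CPM in polysome RNA of GFP LNA mice 1, 2, 3, 8 and 9. In SNORA73 LNA mice 4, 6, 10, 11 and 12 it read 6.64, 4.84, 2.65, 5.90 and 8.13 CPM, so that 3 of 5 lay above all controls and mouse 10 below them all. Its log2 fold change was 0.37 (SE 0.25, interval −0.17 to 0.91, FDR 0.558), and 0.60 (SE 0.20, FDR 0.230) without mice 9 and 10. These values rest on 59 to 177 counts a library. The polysome log2 fold change of G6pc was −0.42 (SE 0.42, FDR 0.713), from 42.2 to 207 CPM with GFP LNA and 42.9 to 209 CPM with SNORA73 LNA. That of Pklr was −0.44 (SE 0.32, FDR 0.589) and 0.01 without mice 9 and 10.

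For the other genes the estimates in polysome RNA were small beside their errors. They were 0.12 for Pck1 (SE 0.21), 0.09 for Pcx (SE 0.14), 0.04 for Slc37a4 (SE 0.22), −0.10 for Gckr (SE 0.19) and −0.13 for Slc2a2 (SE 0.30). With library totals in place of TMM, the first 3 of these were −0.02, −0.08 and −0.12. Over 10 mice 0 of the 9 genes had groups that did not overlap in polysome RNA, where 3.2% of all genes tested did not, and without mice 9 and 10 again 0 of the 9, where 8.42% did not. Among the remaining 8 mice 31 of 12825 genes, or 0.242%, passed, and none of the 9 was among them.

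**Figure D2:**
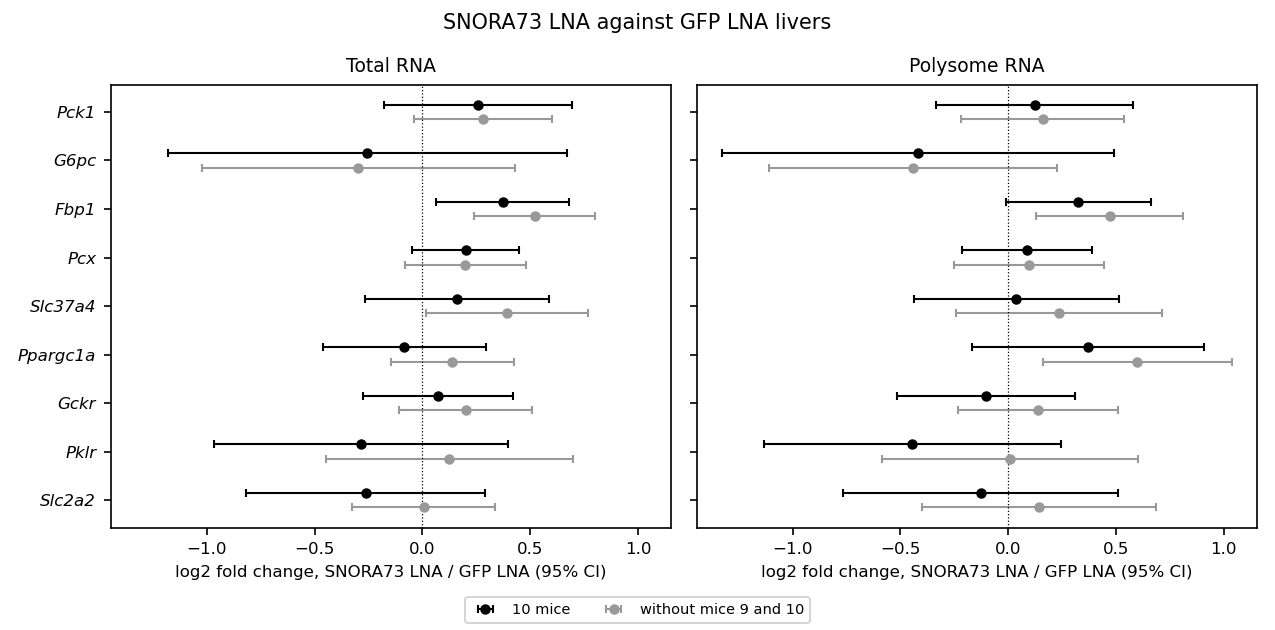
The plot of LNA effects gives the log2 fold change of each gene, SNORA73 LNA over GFP LNA, with its 95% confidence interval in total RNA (left) and polysome RNA (right), black for 10 mice and grey without mice 9 and 10. The intervals of 10 mice include 0 except for Fbp1 in total RNA (0.06 to 0.68), and those of G6pc are the widest.

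A change with the LNA in the polysome level of each mRNA relative to its total level was tested as an interaction term. It used 1 fit of the 20 libraries. TMM sets all libraries to the same average gene, so a shift of all mRNAs toward polysomes cannot be seen in it. The paper reports a shift of ribosomes toward polysomes in livers with the SNORA73 LNA. None of the 9 genes passed and none had an unadjusted p under 0.05, where 1 of 13795 genes, or 0.00725%, passed and 401 had an unadjusted p under 0.05. Limma-voom and DESeq2 called 0 of the 9, which adds little, since over all genes limma-voom called none and DESeq2 few. The largest estimate was that of Ppargc1a, a log2 change of 0.45 (SE 0.31, interval −0.20 to 1.10, FDR 0.9999). A replicate block for the mouse, which uses the pairing of the total and polysome library of each animal, gave 0.40 (SE 0.19, FDR 0.621). The other 8 estimates lay between −0.18 for Gckr and 0.14 for Slc2a2. Under the block the SE of G6pc shrank from 0.66 to 0.10, and its log2 change was −0.18 (interval −0.40 to 0.03, FDR 0.662). Without mice 9 and 10, 0% of genes passed, with 409 of 13579 at an unadjusted p under 0.05, and the block left that at 0%.

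Several of the 9 genes differed between polysome and total RNA. Averaged over both groups, 3 of the 9 genes passed the test and all 3 were lower in polysome RNA, where 55.5% of the 13795 genes tested passed and 26.9% were lower. The difference is relative to the average gene, since TMM sets the 2 RNAs to the same centre. In the fit with the mouse as replicate block 6 of the 9 genes passed, 5 lower and 1 higher, against 65.5% of all genes (32.4% lower and 33.2% higher). Without mice 9 and 10, 4 of the 9 passed, all lower, against 53.4% of all genes (26.6% lower and 26.8% higher). With both changes 5 passed, all lower, against 59.7% (30.3% lower). Without the block, the share of the 9 that passed was not above that of all genes.

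Slc2a2, the glucose transporter, was the lowest of the 9 in polysome relative to total RNA. Its polysome level was 59.4, 73.5, 52.9, 82.5 and 81.6 CPM in GFP LNA mice 1, 2, 3, 8 and 9, which had 144, 186, 140.5, 198 and 210.0 CPM in total RNA. In SNORA73 LNA mice 4, 6, 10, 11 and 12 the polysome level was 52.0, 116, 26.1, 57.9 and 67.9 CPM, against 137, 183, 61.4, 149.7 and 201 CPM in total RNA. These CPM were scaled within each RNA, and the differences of log2 CPM over all 20 libraries. The polysome level was lower than the total level in 10 of 10 mice, and no polysome value reached the total RNA range of the control mice. The mean difference of log2 CPM was −1.32 ± 0.25 (SD over 10 mice), a fold of 0.400, and mouse 6 stood apart with −0.67 against −1.25 or lower in the rest. The test gave −1.30 (SE 0.22, FDR 3.47e-05), and 3.55% of all genes had a lower mean difference.

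Ppargc1a was also lower on polysomes in 10 of 10 mice, at a fold of 0.612. The difference of log2 CPM was −0.66, −1.10, −0.60, −1.01 and −1.13 in GFP LNA mice 1, 2, 3, 8 and 9 and −0.41, −0.55, −0.94, −0.58 and −0.12 in SNORA73 LNA mice 4, 6, 10, 11 and 12. The test averaged over the groups gave −0.70 (SE 0.16, FDR 0.000756). Pck1 was lower by −0.42 to −0.58 in the control mice and by −0.22 to −0.89 in the SNORA73 LNA mice, with a mean of −0.55 ± 0.19 over 10 mice and a fold of 0.682. The test of Pck1 gave −0.55 (SE 0.15, FDR 0.00467).

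G6pc lay at the threshold. Its difference was −0.57, −0.55, −0.63, −0.90 and −0.79 in GFP LNA mice 1, 2, 3, 8 and 9 and −0.82, −0.84, −1.01, −0.84 and −0.85 in SNORA73 LNA mice 4, 6, 10, 11 and 12, so that it was below 0 in 10 of 10 mice. The test without pairing, which counts the large spread of G6pc between mice as error, gave −0.78 (SE 0.33, FDR 0.0511). With the replicate block the SE was 0.05 and the FDR 7.74e-09. Without mice 9 and 10 the FDR was 0.0148, and it was 0.0322 without mouse 6, 0.0298 without mouse 9 and 0.0458 without mouse 10. Pklr was lower on polysomes in 10 of 10 mice as well, by −0.09 to −0.51, and passed with the block (−0.29, SE 0.05, FDR 7.81e-05) but not without it (−0.28, SE 0.24, FDR 0.343). Among all genes tested, 39.2% had 1 sign in all 10 mice and 19.2% were lower in all, against 5 of the 9 here.

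Gckr was the only 1 of the 9 that passed as higher on polysomes, and only with the block (0.25, SE 0.09, FDR 0.0168, against 0.26, SE 0.13, FDR 0.0951 without it). It was higher in 9 of 10 mice, up to 0.75 in mouse 9, and lower by −0.32 in mouse 6. With the block but without mice 9 and 10 the FDR was 0.126. Fbp1, Pcx and Slc37a4 had mean differences of −0.07 ± 0.18, 0.00 ± 0.25 and 0.08 ± 0.27 (SD over 10 mice), and none passed. In each of these 3 genes, in Gckr, in Slc2a2 and in Pck1, SNORA73 LNA mouse 6 held 1 end of the range of the 10 mice.

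**Figure D3:**
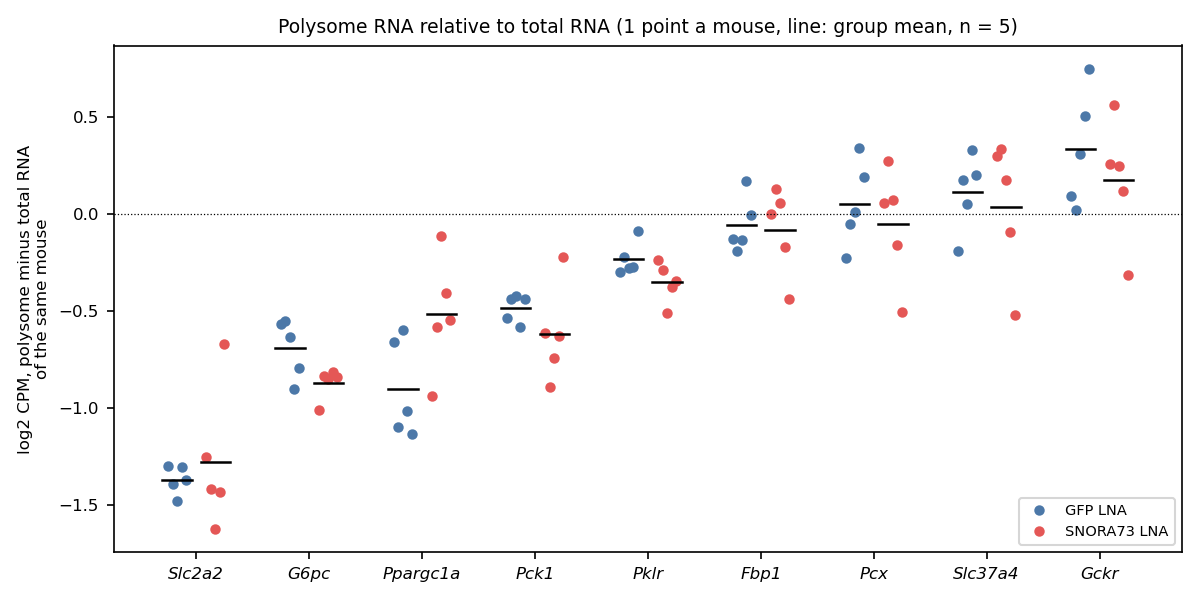
The plot of polysome minus total log2 CPM has 1 point a mouse (blue GFP LNA, red SNORA73 LNA), the group mean of 5 mice as a line, and the genes ordered by their mean from Slc2a2 at −1.32 to Gckr at 0.26. All 10 points lie below 0 for Slc2a2, G6pc, Ppargc1a, Pck1 and Pklr.

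Pck1 and G6pc, which respond to the same hormones, were compared across mice as 1 of 5 relations computed. Over 10 mice, Pearson's r of log2 CPM in total RNA was 0.603 (permutation p = 0.0664, adjusted over 5 relations 0.332) and Spearman's rho 0.527 (permutation p = 0.123, adjusted 0.617). Without mice 9 and 10, the 2 farthest from the median Pck1, r was 0.0129, so the relation rested on these 2 mice. Taken as deviations from the group means, r was 0.707 (adjusted permutation p = 0.108), and each LNA group alone has too few mice for a value. In polysome RNA r was 0.802 (adjusted permutation p = 0.0286) with rho 0.745 (adjusted permutation p = 0.0843), and r was 0.461 without the same 2 mice. The polysome libraries come from the same mice and are no independent check.

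**Figure D4:**
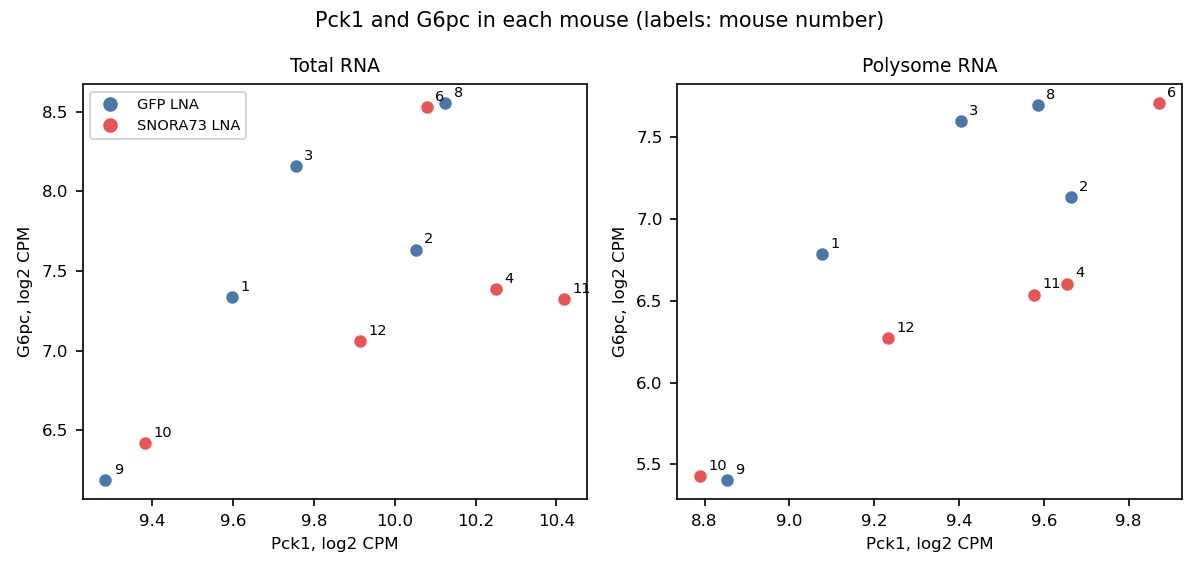
The plot of Pck1 against G6pc gives log2 CPM of both genes in total RNA (left) and polysome RNA (right), 1 numbered point a mouse (blue GFP LNA, red SNORA73 LNA). Mice 9 and 10 lie together at the low end of both genes in both panels, and the other 8 show little relation in total RNA (r = 0.0129).

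Of the other relations, 3 are given, and their values were smaller in total RNA. Pearson's r was 0.260 for Pck1 with Ppargc1a, −0.140 for G6pc with Ppargc1a and −0.109 for Pck1 with Igfbp1 (adjusted permutation p = 0.947), and rho was 0.224, −0.176 and −0.103 (adjusted permutation p = 0.919). Leaving out mice 9 and 10, r was 0.646, −0.476 and −0.173 in the same order (adjusted permutation p = 0.225, 0.351 and 0.842). For G6pc with Ppargc1a the 2 mice farthest from the median G6pc were 8 and 9, and without them r was 0.309, of the other sign. With 1 mouse left out in turn, r of Pck1 with Ppargc1a was −0.104 without mouse 10 and 0.189 to 0.296 without any one of the others but mouse 9. Without mouse 9 it was 0.814 (adjusted permutation p = 0.0411), with a rho of 0.683 (adjusted permutation p = 0.254), so that its value rested on these 2 mice. The 5 genes outside the group whose total RNA pattern was most like that of Pck1 over 10 libraries were Rttn (r = 0.906), Proser3 (0.884), Plekhb1 (0.881), Ctnnbip1 (0.881) and Zfp395 (0.877). In the polysome libraries of the same mice their r with Pck1 was 0.398, 0.135, 0.859, 0.639 and 0.729.

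Igfbp1, a gene that insulin represses, read 71.1, 44.9, 138, 146 and 114 CPM in GFP LNA mice 1, 2, 3, 8 and 9 and 27.7, 100.4, 31.5, 60.6 and 19.4 CPM in SNORA73 LNA mice 4, 6, 10, 11 and 12. Its log2 fold change was −1.10 (SE 0.44, FDR 0.505) in total RNA and −1.16 (SE 0.42, FDR 0.269) in polysome RNA, with overlapping groups. Foxo1, the insulin-controlled activator of G6pc and Pck1, had a log2 fold change of 0.22 (SE 0.12, FDR 0.662) in total RNA and 0.28 (SE 0.13, FDR 0.383) in polysome RNA. Neither gene passed in any LNA comparison. Between polysome and total RNA, Igfbp1 was at −0.58 (FDR 0.143, and 3.01e-07 with the replicate block).

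The wider pathway was read from 3 lists that share members with the group. Of 21 gluconeogenic enzymes and transporters tested, 20 regulators of gluconeogenic genes and 18 genes of glucose uptake and glycolysis, 0 passed in total RNA, polysome RNA or the interaction, and Fbp2 was too low to test. The median log2 fold change in total RNA was 0.02, 0.10 and −0.06 for these lists and in polysome RNA −0.18, 0.08 and −0.11. An unadjusted p under 0.05 was reached by 2, 1 and 0 of them in total RNA, by 3, 3 and 0 in polysome RNA and by 0 in the interaction, against 8.65%, 13.4% and 2.91% of all genes. Limma-voom called 0 in each list, and DESeq2 called 1 gluconeogenic gene lower in polysome RNA, where its count over all genes is given above. Without mice 9 and 10, 1 gene passed, Foxo3, a relative of Foxo1, at 0.45 in total RNA (FDR 0.0400). Over all genes 97 of 13017, or 0.745%, passed in that comparison. For Foxo3 in total RNA, mouse 9 read 26.3 CPM and the other controls at most 20.1 CPM. Mouse 10 read 13.5 CPM and the other SNORA73 LNA mice at least 24.6 CPM, so the groups overlapped over 10 mice. In the interaction, the gluconeogenic list had a median of −0.15 against −0.01 for all genes. SNORA73 LNA mouse 6 had the lowest polysome minus total difference of the 10 mice for many of its genes, such as Fbp1, Pcx, Mdh1 and Gpt. It had the highest for others, such as Pck1 and Mpc1. With 1 mouse left out in turn, the interaction estimates of Fbp1, Pcx and Slc37a4 reached 0.06, 0.01 and 0.04. The estimates come from the same 10 mice and are not independent of each other.

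Between polysome and total RNA, in the fit without the replicate block, the gluconeogenic list split, with 6 of 21 genes higher and 3 lower. The highest was Mpc2, a subunit of the mitochondrial pyruvate carrier, at 0.88 (SE 0.12, FDR 2.27e-06), followed by the alanine transaminase Gpt at 0.49 (FDR 0.0142). The lowest was Gk, glycerol kinase, at −1.56 (SE 0.13, FDR 2.47e-09), followed by Pck1. Of the 20 regulators 7 were higher, led by Ppargc1b (0.98, FDR 0.0121) and the transcription factor Cebpb (0.90, FDR 1.39e-05), and 5 were lower, led by the deacetylase Sirt1 (−1.67, FDR 8.06e-07) and the glucocorticoid receptor Nr3c1 (−1.02, FDR 2.35e-09). The coactivators Ppargc1a and Ppargc1b thus lay on opposite sides of the average gene. Of the 18 genes of glucose uptake and glycolysis 6 were higher, led by Gpi1 (0.47, FDR 0.000756) and the fructose kinase Khk (0.43, FDR 0.00609), and 3 were lower, led by Slc2a2 and by Pdha1 of the pyruvate dehydrogenase complex (−0.43, FDR 4.79e-05). The shares that passed in this fit without pairing, 9 of 21, 12 of 20 and 9 of 18, lay around the 55.5% of all genes.

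Markers of other liver cells were read beside these values. The summed level of 7 sinusoidal endothelial markers in polysome RNA was 94.3 to 111 CPM with GFP LNA and 119 to 128 CPM with SNORA73 LNA, without overlap. In total RNA it was 104 to 127 and 123 to 142 CPM, and 1 of the 7, Stab2, passed there. The 7 Kupffer cell markers summed to 146 to 233 CPM with GFP LNA and 136 to 253 CPM with SNORA73 LNA in total RNA, and the 8 hepatocyte markers to ranges that overlapped as well. In total RNA the 9 periportal hepatocyte markers summed to 6825 to 9053 CPM with GFP LNA and 6721 to 10578 CPM with SNORA73 LNA. The 9 pericentral ones summed to 5958 to 7291 and 5718 to 6949 CPM. Sums of stellate cell, cholangiocyte, red cell, lymphocyte and neutrophil markers overlapped between the groups too. The part of cell composition in the values of the 9 genes was not tested.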

How the data were processed

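Total and polysome RNA of 10 mouse livers (5 per LNA group) was sequenced as polyA-selected libraries of paired 100 bp reads. The authors trimmed reads with fastp at a Phred quality of 15, removed rRNA reads, quantified Ensembl transcripts with kallisto, and used tximport to sum over the transcripts of a gene. The authors deposited the resulting estimated counts as they were, not normalized. The libraries were reverse stranded. The strand setting of kallisto and the scaling option of tximport are not given in the sources used here. Kallisto shares reads among compatible transcripts, so overlapping genes and near-identical copies are uncertain. The 9 genes and all lists were chosen with earlier results of these data known, as was the omission of mice 9 and 10.

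Estimated counts were rounded, and symbols were matched for 51903 of 53028 genes. Unmatched genes held up to 2.99% of a library's counts. A gene needed more than 0.5 CPM in 4 or more libraries of a fit. Tests were edgeR quasi-likelihood tests (edgeR 4.0.16, R 4.3.3) with TMM factors, total and polysome RNA apart and the interaction over 20 libraries, with Benjamini-Hochberg adjustment over all genes tested. Log2 CPM values used a prior count of 2. Alternatives were limma-voom (limma 3.58.1), DESeq2 1.42.0, other scalings and filters, 1 mouse left out in turn and the mouse number as a block. The number was taken to mark the same animal. The deviations of its 2 libraries from their group means correlated at 0.126 to 0.579 in the 10 mice, and 8 of 10 libraries matched their own mouse best. Those that did not were of SNORA73 LNA mice 4 (0.153) and 6 (0.126). The polysome libraries of these mice had the highest share of mitochondrial counts, 3.61% and 3.89%, against 1.76% to 3.05% in the other polysome libraries. Relations across mice used two-sided permutation tests with 100000 resamples. All 9 genes, Foxo1 and Igfbp1 were named throughout, and 1 further gene of that rule, with its relation to Pck1, is not reported here. From each list, genes that passed in an LNA comparison and, between polysome and total RNA, the 2 highest and 2 lowest that passed were named. In simulated counts with a log2 change of 1, 71.4% of 196 changed genes were recovered in total RNA, 46.0% of 198 in polysome RNA, 31.0% of 197 in the interaction and 81.9% of 199 between the RNAs. The changed genes were drawn at random and the simulated libraries had no pairing by mouse. These rates are therefore not rates for the 9 genes. Members, promoters and positions came from RefSeq tables of GRCm38.p6.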

Additional observations from a re-analysis of the deposited data

Results flagged for a closer look

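Among 54 groups of 5 mice (36 of CPM values and 18 of polysome minus total differences of the 9 genes), a single mouse lay far from the other 4 in 2 groups, and chance alone gives about 1 in 20. Total RNA G6pc of SNORA73 LNA mouse 6 was 369 CPM, where the other 4 mice of the group had 85.5 to 168 CPM. The polysome minus total difference of G6pc in SNORA73 LNA mouse 10 was −1.01 on the log2 scale, where the other 4 mice lay between −0.85 and −0.82.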

How the results depend on the processing

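In the LNA comparisons, 0 of the 9 genes passed under all alternatives run, each mouse left out included. Which mice entered moved the estimates most. Without mice 9 and 10, the direction turned in total RNA for Ppargc1a (0.1397), Pklr (0.1257) and Slc2a2 (0.0059), and in polysome RNA for Gckr (0.1381), Pklr (0.0086) and Slc2a2 (0.1432). With limma-voom on these 8 mice, a setting chosen after seeing the data, the values were 0.1373, 0.131, 0.0036, 0.1126, 0.0253 and 0.0955. Library totals turned Gckr in total RNA (−0.066) and Pck1 (−0.0232), Pcx (−0.0782) and Slc37a4 (−0.1214) in polysome RNA. Between polysome and total RNA, 3 genes passed in the fit as reported, 6 with the replicate block and 5 with the block on 8 mice (chosen after seeing the data), since pairing removes the spread between mice. Pcx, at 0.00 there, read −0.0113 with DESeq2, −0.0109 with its size factors, −0.0153 without a filter, −0.0645 with a CPM above 1 in every library, −0.0448 on 8 mice, −0.0471 with the block on 8 mice and −0.0492 with limma-voom on 8 mice. The block changed no other call among the 9 genes. Over all genes, calls in total RNA were 75 with DESeq2, 2 with library totals, 13 without a filter, 2 with the stricter filter, 97 on 8 mice and 102 with limma-voom on 8 mice. In polysome RNA they were 281, 0, 72, 31, 31 and 28 in the same order and 317 in 1 fit of all libraries. In the interaction they were 0 with limma-voom, the stricter filter, 8 mice, 8 mice with the block and 8 mice with limma-voom, and 7 with DESeq2. With 1 mouse left out in turn, the lowest and highest values in total RNA were −0.6791 and 0.0178 for G6pc, −0.1622 and 0.027 for Ppargc1a and −0.0269 and 0.1851 for Gckr, and 1 and 59 calls over all genes. In polysome RNA they were −0.1076 and 0.2296 for Slc37a4, −0.2307 and 0.0377 for Gckr and −0.4575 and 0.0805 for Slc2a2, and 0 and 17 calls. In the interaction they were −0.099 and 0.0572 for Fbp1, −0.1895 and 0.014 for Pcx, −0.193 and 0.0403 for Slc37a4 and −0.1114 and 0.263 for Slc2a2. Between polysome and total RNA they were −0.0361 and 0.0656 for Pcx. For r they were −0.1037 and 0.8139 (Pck1 with Ppargc1a), −0.7071 and 0.2307 (G6pc with Ppargc1a) and −0.3188 and 0.0801 (Pck1 with Igfbp1), the highest of each without mouse 9. The cause of these shifts was not tested. Among the relations, Pck1 with G6pc was 0.8019 in polysome libraries, G6pc with Ppargc1a 0.0605 there, and Pck1 with Igfbp1 0.2037 there and 0.1521 as deviations from group means. With 5 mice a group the spread of G6pc and Pklr between mice limits what can be seen. Ppargc1a, at 59 counts in its lowest library, has the least depth of the 9.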

Other observations

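Glycogen metabolism and the genes induced by fasting or feeding were read as neighbouring groups. Of 17 glycogen genes tested, 0 passed in an LNA comparison by edgeR, with 2 at an unadjusted p under 0.05 in total RNA, 4 in polysome RNA and 0 in the interaction, against 8.65%, 13.4% and 2.91% of all genes, and limma-voom and DESeq2 also called 0. Of 11 fasting-induced and 11 feeding-induced genes, 0 passed in total or polysome RNA by any of the 3 tools, with 2 and 0 at an unadjusted p under 0.05 in each RNA.

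Between polysome and total RNA, 2 of 17 glycogen genes were higher, the phosphorylase kinase subunit Phkg2 (0.59, FDR 2.77e-07) and the lysosomal glucosidase Gaa (0.41, FDR 0.00238), and 5 were lower, led by the branching enzyme Gbe1 (−0.99, FDR 3.38e-05) and Pgm2 (−0.73, FDR 0.0207). With the replicate block of mouse number 13 passed. Over all genes 55.5% passed, and 65.5% with the block. Among 12 fasting-induced genes Creb3l3 was higher (0.39, FDR 0.00155) and 3 were lower, led by Txnip (−0.91, FDR 4.53e-05) and Pdk4 (−0.79, FDR 0.0262), and 9 passed with the block. Among 11 feeding-induced genes Pmvk was higher (0.91, FDR 2.23e-06) and 4 were lower, led by the desaturase Scd1 (−1.03, FDR 0.00646) and the elongase Elovl6 (−0.71, FDR 0.0323), and 8 passed with the block.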
